A study of Mus musculus with 24 samples.

Results

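The early transcriptional response of astrocytes to 2 Gy X-rays was described by comparing the 4 libraries harvested 6 h after 2 Gy with the 4 libraries of mock-irradiated cells (0 Gy) harvested at the same time, 8 of the 24 libraries of the series. The cells were wild type primary astrocytes from the brain cortex of C57BL/6J mouse embryos, kept in culture and irradiated 3 days after seeding, at 1 Gy per minute. Mock-irradiated cells were handled alike with the source switched off. Cells of all embryos of a litter were pooled and new astrocytes were isolated for each experiment, so a library represents a culture from several embryos and not a single animal. The replicate numbers 1 to 4 of the labels were used to pair an irradiated with a mock-irradiated library, and these are called pairs 1 to 4. All genes that passed the filter on low counts were compared, 15994 of the 49315 genes listed. Levels are given as CPM (counts scaled to the library total) after TMM normalization, which scales the libraries to each other.

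Ionizing radiation breaks DNA, and the kinases that sense the breaks stabilize the transcription factor p53. p53 switches on genes that stop the cell cycle, such as the inhibitor of cyclin-dependent kinases p21 (*Cdkn1a*), genes of cell death and repair, and its own inhibitor *Mdm2*, which makes the response self-limiting. In cells that stop dividing, the transcripts of DNA replication and mitosis, which depend on E2F and related factors, decline.

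The total counts ranged from 19986385 to 24345245 in the mock-irradiated and from 17411172 to 38194800 in the irradiated libraries. Markers of astrocytes were present in every library and their summed level was 2756 to 3492 CPM at 0 Gy and 2897 to 3354 CPM at 2 Gy (12 of 12 genes measured). Markers of other cell types were present as well. Those of fibroblasts and vessels summed to 5869 to 7589 CPM at 0 Gy and 5454 to 7455 CPM at 2 Gy (12 of 14 genes measured). Those of the oligodendrocyte lineage summed to 442 to 812 CPM at 0 Gy and 410 to 749 CPM at 2 Gy (10 of 12 genes measured). Of 16 neuronal markers, 9 passed the filter, and the summed level was 459 to 652 CPM at 0 Gy and 442 to 657 CPM at 2 Gy. Among them, *Neurod2* had no count in any of the 8 libraries, and *Rbfox3*, *Slc17a7* and *Nefl* stayed under 1 CPM. Pair 2 stood apart from the other pairs. The summed level of 14 microglial markers was 414 CPM in its mock-irradiated and 454 CPM in its irradiated library, against 2877 to 3873 CPM in the other 6 libraries. In these bulk samples, fewer cells of a type and less RNA per cell cannot be told apart. Pair 4 had the widest spread of log2 ratios over genes (SD 0.527, against 0.262 to 0.318 in the other pairs) and the strongest correlation of the ratio with GC content across genes (r = -0.519), which are not independent replicates.

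At 6 h, no gene passed an adjusted p of 0.05 in edgeR, either without the pairing (0 of 15994 genes, 0%) or with it (0 of 15994, 0%), and the lowest adjusted p was 0.9999 and 0.141, respectively. The distribution of p-values nevertheless changed with the pairing. At an unadjusted p under 0.05, 99 genes (0.619% of those tested) were higher and 116 (0.725%) lower after 2 Gy without the pairing, and 568 (3.55%) were higher and 533 (3.33%) lower with it. DESeq2 with the pairing called 57 genes higher (0.414% of 13756 genes with an adjusted p) and 9 lower (0.0654%) at an adjusted p under 0.05, and DESeq2 without the pairing called 1 gene, *Uhrf1*. A fit of all 24 libraries in edgeR, with the pairing within each time point, called 64 genes higher (0.369% of 17353) and 14 lower (0.0807%). Of the DESeq2 calls, 46 of 57 higher and 6 of 9 lower genes were also called by this fit. The changes were small: the log2 fold changes of the 57 genes were from 0.39 to 1.35 (median 0.57), those of the 9 genes from -0.66 to -0.44 (median -0.55), and 4 genes exceeded a 2-fold difference. In the following, a gene is called higher or lower when it passed an adjusted p of 0.05 in DESeq2 with the pairing, and none of these genes passed it in edgeR with all 8 libraries and no adjustment for GC share. With the pairing, limma-voom and the newer quasi-likelihood method of edgeR called 0 genes as well (lowest adjusted p = 0.131 and 0.139), where 1173 and 1117 genes were under an unadjusted p of 0.05. With the pairing and counts adjusted for the GC share and length of genes, edgeR on the 8 libraries called 155 genes, among them 55 of the 57 higher and 8 of the 9 lower genes.

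**Figure D1:**
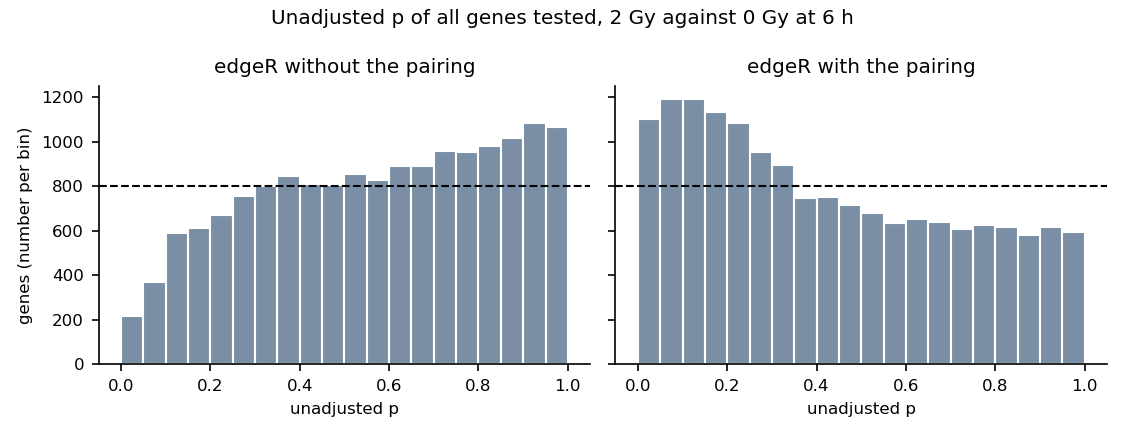
Unadjusted p (x axis) of the 15994 genes tested in edgeR, as the number of genes (y axis) in bins of width 0.05, without the pairing (left) and with it (right); the dashed line marks an even distribution. The lowest bin holds 215 genes without and 1101 genes with the pairing.

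The calls depended on which pairs were present. At an adjusted p under 0.05, DESeq2 with the pairing called 25 genes without pair 1, 23 without pair 2, 48 without pair 3 and 107 without pair 4, compared with 66 with all pairs. Of the 57 genes called higher, 16 were called higher whichever pair was left out. These were *Ano3*, *Trp53inp1*, *Celf5*, *1700007K13Rik*, *Pmaip1*, *Eda2r*, *Ccng1*, *Mdm2*, *Cdkn1a*, *Klhdc7a*, *Zfp365*, *Dcxr*, *Ddias*, *Slc19a2*, *Ddit4l* and *Pidd1*, of which 10 are in the lists of p53 targets. None of the 9 genes called lower was called in all 4 of these fits. edgeR with the pairing called 129 genes without pair 4 (94 of them higher) and 0 without pair 1, 2 or 3, where 859, 451 and 1896 genes were under an unadjusted p of 0.05.

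p53 targets of cell cycle arrest and feedback were shifted upwards. Of the 20 genes on the list, 17 were higher and 3 lower after 2 Gy, with a median log2 fold change of 0.40 in edgeR with the pairing, against 0.00 over all genes tested. Of the list, 9 genes were called higher and 0 lower in DESeq2 with the pairing, against 0.414% and 0.0654% of the genes with an adjusted p. At an unadjusted p under 0.05, 14 of the 20 were higher with the pairing and 7 without it, against 3.55% and 0.619% of all genes tested. These shares, and 3.33% and 0.725% for lower genes, also serve for the lists below. The list median was positive in each pair (0.48, 0.29, 0.43 and 0.53 in pairs 1 to 4).

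*Cdkn1a*, the gene of p21 (chr17:29090979-29100722, GRCm38, plus strand), was at 346, 560, 281 and 298 CPM in the mock-irradiated libraries 1 to 4 and at 611, 737, 527 and 436 CPM in the irradiated ones. It was higher in 4 of 4 pairs, but the groups overlapped, since mock-irradiated library 2 exceeded 2 irradiated libraries. The means were 371 ± 129 and 578 ± 128 CPM (SD, n = 4), a log2 fold change of 0.67 ± 0.11 (SE) and an adjusted p of 3.51e-06 in DESeq2 with the pairing. *Mdm2*, the ubiquitin ligase that removes p53 (chr10:117688888-117710758, minus strand), was at 152, 222, 140 and 116 CPM at 0 Gy and at 231, 309, 213 and 230 CPM at 2 Gy. Here, too, 1 mock-irradiated library, that of pair 2, lay within the range of the irradiated ones. For *Mdm2*, the log2 fold change was 0.67 ± 0.11 (adjusted p = 3.51e-06, DESeq2 with the pairing). Two-sided exact permutation tests of the 4 against 4 libraries, which ignore the pairing, gave p = 0.0857 for *Cdkn1a* and 0.0571 for *Mdm2*, where the smallest p that 35 divisions allow is 0.0286.

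*Ccng1*, the gene of the p53-induced cyclin G1 (chr11:40748552-40755311, minus strand), was the p53 target of this list whose groups did not overlap. Its levels were 482, 678, 474 and 409 CPM at 0 Gy and 708, 1077, 683 and 930 CPM at 2 Gy, with means of 511 ± 117 and 849 ± 188 CPM (SD, n = 4). The log2 fold change was 0.73 ± 0.12 (adjusted p = 2.75e-06, DESeq2 with the pairing). Over all genes tested, the groups did not overlap in 74 genes that were higher (0.463%) and 113 that were lower (0.707%). *Trp53inp1*, a stress-induced gene whose product promotes p53 activity, had the largest difference of the list. It was at 68.1, 132, 64.7 and 54.8 CPM in the mock-irradiated and at 115, 229, 116 and 161 CPM in the irradiated libraries, a log2 fold change of 0.99 ± 0.14 (adjusted p = 2.66e-09, DESeq2 with the pairing).

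The other members of the list called higher were *Zfp365*, *Sesn2*, *Psrc1*, *Ckap2* and *Plk2*, with log2 fold changes of 0.64, 0.55, 0.54, 0.49 and 0.41. *Sesn2* encodes a sestrin of the oxidative stress response, and *Psrc1* and *Ckap2* encode spindle-associated proteins. All of these were higher in 4 of 4 pairs, as were 1403 genes (8.77%) of all those tested, while 1366 (8.54%) were lower in 4 of 4 pairs. Known p53 targets that were not called include *Btg2* (log2 fold change 0.32, adjusted p = 0.343, DESeq2 with the pairing) and *Gadd45a*, which was at 29.2 ± 4.02 CPM at 0 Gy and at 27.3 ± 2.95 CPM at 2 Gy (SD, n = 4).

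**Figure D2:**
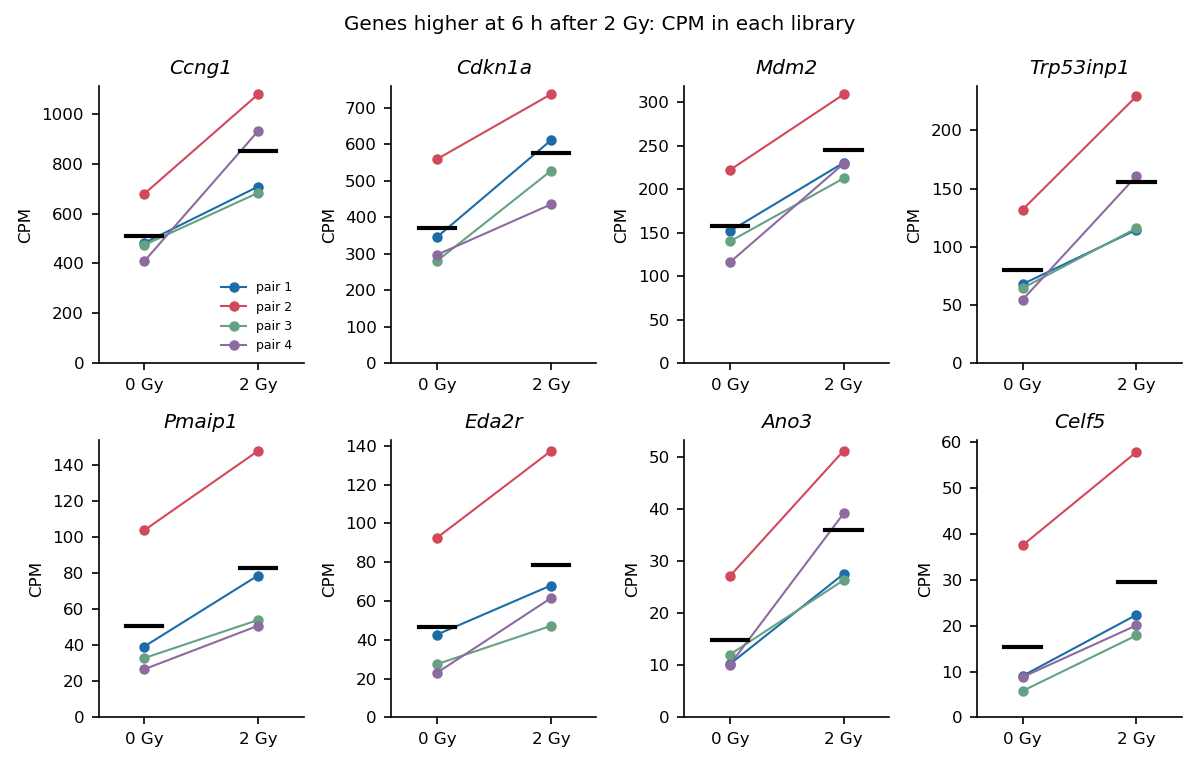
CPM (y axis, from 0) of 8 genes in the mock-irradiated (0 Gy) and irradiated (2 Gy) libraries at 6 h; lines join the libraries of a pair and black bars are the means of 4 libraries. Every line points upwards, and pair 2 (red) starts from the highest level in each of the 8 genes.

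Pair 2 held the highest levels of p53 targets at both doses. Among the mock-irradiated libraries, that of pair 2 was highest in 43 of the 55 genes of the 3 lists of p53 targets (78.2%), compared with 5030 of all 15994 genes tested (31.4%). Among the irradiated libraries it was highest in 39 of the 55 genes (70.9%, against 34.2% of all genes). The median log2 level of the 55 genes relative to the mean of the mock-irradiated libraries was 0.47 in mock-irradiated library 2 and -0.22 to -0.03 in the other mock-irradiated libraries, while the irradiated libraries of pairs 1, 3 and 4 were at 0.31, 0.15 and 0.21. Thus the mock-irradiated library of pair 2 lay above the irradiated libraries of the other pairs, and the irradiated library of pair 2 was higher still, at 0.76. Within pair 2 the median difference of the 55 genes was 0.29, against 0.35, 0.34 and 0.39 in pairs 1, 3 and 4. Without the pairing, many fold changes depended on the libraries of pair 2. Of 43 called genes examined, 15 moved by over 1.5 times on the log2 scale when 1 library was left out, and each of the 15 did so for a library of pair 2. *Zfp365* went from 0.59 to 1.20 without mock-irradiated library 2 and to 0.07 without irradiated library 2, *Celf5* from 0.94 to 1.90 and 0.39, *Pmaip1* from 0.71 to 1.32 and 0.28 and *Eda2r* from 0.75 to 1.33 and 0.34. With the pairing in edgeR, leaving out a pair moved 1 of the 43 genes by that much, *Polk*, from 0.55 to 0.36 without pair 4. The low microglial level and the high p53 target level occurred in the same culture, and their relation was not tested.

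The promoters of these genes were searched for the p53 element, the consensus of 10 bases to which a p53 dimer binds and which reads alike on both strands, in windows from 250 bases before to 50 bases after each RefSeq start (GRCm38.p6). A window was found for 42 of the 55 p53 targets, and 14 of the 42 (33.3%) held at least 1 element, compared with 9.55% of 27025 genes. Of the arrest and feedback genes it was 7 of 16. A pair of elements with at most 13 bases between them was present in 1 of the 42 genes, *Cdkn1a*, and in 0.074% of all genes. The stretches of *Cdkn1a*, *Ccng1*, *Mdm2* and *Ei24* are shown because these genes were called higher after 2 Gy, and capitals mark the elements.
Cdkn1a, chr17:29090856-29090978, plus strand: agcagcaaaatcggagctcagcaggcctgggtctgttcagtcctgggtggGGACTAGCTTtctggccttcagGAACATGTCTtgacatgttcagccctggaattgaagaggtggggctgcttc
Ccng1, chr11:40755412-40755521, minus strand: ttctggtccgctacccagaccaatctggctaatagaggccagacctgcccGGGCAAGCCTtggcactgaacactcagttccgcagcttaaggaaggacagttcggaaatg
Mdm2, chr10:117710885-117710994, minus strand: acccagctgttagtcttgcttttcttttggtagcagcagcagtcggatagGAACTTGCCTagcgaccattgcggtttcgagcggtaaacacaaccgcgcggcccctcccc
Ei24, chr9:36797335-36797394, minus strand: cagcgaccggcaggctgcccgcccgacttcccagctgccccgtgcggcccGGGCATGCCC
In *Cdkn1a* the elements are separated by 12 bases and lie 42 to 73 bases before the start. Elements were also present in windows of genes whose level hardly differed, such as *Bax* and *Gadd45a*. A match is a run of letters and was not tested for binding in these cells.

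p53 targets of cell death were higher as well, without all members taking part. Of 15 genes, 12 were higher and 3 lower, with a median log2 fold change of 0.42 in edgeR with the pairing, and DESeq2 with the pairing called 6 higher and 0 lower. At an unadjusted p under 0.05, 10 of the 15 were higher with the pairing and 3 without it, against 3.55% and 0.619% of all genes. *Pmaip1*, which encodes the BH3-only protein Noxa (chromosome 18), was at 39.3, 104, 32.9 and 26.7 CPM at 0 Gy and at 78.8, 148, 54.1 and 50.9 CPM at 2 Gy. It was higher in 4 of 4 pairs, with a log2 fold change of 0.79 ± 0.12 (adjusted p = 1.02e-07, DESeq2 with the pairing), although the mock-irradiated library of pair 2 exceeded the irradiated libraries of the 3 other pairs. *Eda2r*, a death receptor of the tumor necrosis factor receptor family on chromosome X, was at 42.7, 92.6, 27.5 and 23 CPM in the mock-irradiated and at 68, 137, 47.2 and 61.5 CPM in the irradiated libraries. The log2 fold change was 0.85 ± 0.14 (adjusted p = 2.31e-06, DESeq2 with the pairing).

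The other members called higher were *Pidd1*, a scaffold for the activation of caspase-2 (0.75 on the log2 scale), *Tnfrsf10b*, a receptor of the ligand TRAIL (0.57), *Ei24* (0.46) and *Dcxr* (0.83), which encodes a carbonyl and xylulose reductase and not a factor of the cell death machinery. *Dcxr* rose from 30.4 ± 12 to 51.8 ± 11.3 CPM (SD, n = 4). The pro-apoptotic genes *Bax* and *Bbc3*, which encodes Puma, did not differ in a common direction. *Bax* was at 127, 130, 86.3 and 140 CPM at 0 Gy and at 147, 109, 117 and 84.6 CPM at 2 Gy, higher in 2 pairs and lower in 2, with a log2 fold change of -0.08 ± 0.17 in edgeR with the pairing, of 0.13 without pair 4 and of 0.057 with counts adjusted for GC share and length. *Bbc3* was likewise higher in 2 of 4 pairs (0.10 ± 0.19). Its value was -0.04 without pair 1, 0.22 without pair 2, -0.10 without pair 3, 0.28 without pair 4 and 0.31 with counts adjusted for GC share and length, each with the pairing. *Fas* and *Apaf1* were higher in 4 of 4 pairs and were not called (adjusted p = 0.916 and 0.128, DESeq2 with the pairing).

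Of 20 p53 targets of repair, redox control and metabolism, 17 were higher and 3 lower, with a median log2 fold change of 0.16, and DESeq2 with the pairing called 3 higher and 0 lower. At an unadjusted p under 0.05, 6 were higher with the pairing and 2 without it, against 3.55% and 0.619% of all genes. *Slc19a2*, a thiamine transporter, was at 37.9, 57.8, 29.5 and 27.7 CPM in the mock-irradiated and at 55.7, 79, 46.3 and 52.7 CPM in the irradiated libraries. Its log2 fold change was 0.64 ± 0.12 (adjusted p = 6.63e-05, DESeq2 with the pairing). *Ercc5*, an endonuclease of nucleotide excision repair, and *Polk*, a DNA polymerase that copies past lesions, were the other calls (0.52 and 0.56 on the log2 scale). *Xpc*, the damage sensor of nucleotide excision repair, was at 17.4 ± 1.47 CPM at 0 Gy and at 17.1 ± 2 CPM at 2 Gy (SD, n = 4).

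Of the 57 genes called higher, 18 belonged to the lists of p53 targets and 38 to no list. The smallest p of all genes in DESeq2 with the pairing was that of *Ano3*, which encodes a membrane protein of the anoctamin family (chr2:110655201-110950923, minus strand). *Ano3* was at 10.2, 27.1, 12 and 10.1 CPM at 0 Gy and at 27.5, 51.1, 26.3 and 39.1 CPM at 2 Gy, with means of 14.9 ± 8.2 and 36 ± 11.6 CPM (SD, n = 4). The log2 fold change was 1.35 ± 0.16 (adjusted p = 1.04e-12, DESeq2 with the pairing), a 2.42-fold ratio of the means. *Muc15*, which overlaps it on the other strand and could share reads if strand was not used in counting, was at 0.607 CPM on average over the 8 libraries.

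*Celf5*, which encodes an RNA-binding protein of the CELF family (chr10:81459227-81482709, minus strand), was at 9.07, 37.6, 5.79 and 8.82 CPM in the mock-irradiated and at 22.4, 57.9, 17.9 and 20.1 CPM in the irradiated libraries. Pair 2 was again far above the others, and the level was higher after 2 Gy in 4 of 4 pairs. The log2 fold change was 1.17 ± 0.16 in DESeq2 with the pairing (adjusted p = 3.64e-09), and edgeR without the pairing 0.94 ± 0.63. *1700007K13Rik* and *Klhdc7a*, a gene with kelch repeats, followed with 1.15 ± 0.17 and 1.00 ± 0.17. *Svop*, a relative of the synaptic vesicle protein SV2, was at 10.9, 28.7, 4.77 and 7.84 CPM at 0 Gy and at 22.3, 40.4, 14.5 and 13.4 CPM at 2 Gy (0.96 ± 0.17, adjusted p = 2.88e-05, DESeq2 with the pairing). *Svop* overlaps *Usp30* on the other strand, whose log2 fold change was 0.02.

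The following genes called higher are on no p53 list. *Mdm4*, an inhibitor of p53 related to *Mdm2*, was at 71.6, 73.6, 78.4 and 57.3 CPM at 0 Gy and at 92.7, 99.3, 99.3 and 95.6 CPM at 2 Gy, so that the groups did not overlap. Its log2 fold change was 0.47 ± 0.11 (adjusted p = 0.00756, DESeq2 with the pairing). *Pml*, which builds nuclear bodies, rose from 55 ± 4.52 to 72.1 ± 5.41 CPM (SD, n = 4), and its groups did not overlap either. *Ddit4l*, an inhibitor of mTOR signaling, and *Ddias*, a gene that protects from damage-induced apoptosis, had log2 fold changes of 0.56 and 0.84. *Nfe2l2*, the gene of the oxidative stress factor Nrf2, was called higher (0.47 ± 0.11, adjusted p = 0.0114, DESeq2 with the pairing). Of the 14 Nrf2 targets listed, 12 were higher and 2 lower (median log2 fold change 0.05). DESeq2 called 0 of them in either direction, and 0 were under an unadjusted p of 0.05 in edgeR with or without the pairing. *Fosl1*, of the AP-1 family, was higher in 4 of 4 pairs (0.46 ± 0.12, adjusted p = 0.0191, DESeq2 with the pairing).

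Of the 39 genes called higher that are not on a p53 list, 26 had a promoter window, and 6 of these (23.1%) held the p53 element, compared with 9.55% of all genes. These were *Celf5*, *1700007K13Rik*, *Klhdc7a*, *Ddit4l*, *Inka2* and *Pml*. The stretch of *Celf5* is shown as that of the gene with the smallest p among them.
Celf5, chr10:81482822-81482931, minus strand: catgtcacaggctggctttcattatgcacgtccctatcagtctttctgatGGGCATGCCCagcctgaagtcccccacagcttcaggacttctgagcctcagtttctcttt
The genes were chosen by their levels in these libraries, so this share is a description of the called genes.

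Nearly all genes of the S phase list had negative log2 fold changes after 2 Gy, though few were called. Of 43 genes, 42 were lower and 1 higher, with a median log2 fold change of -0.19 in edgeR with the pairing. At an unadjusted p under 0.05, 19 were lower with the pairing and 11 without it, against 3.33% and 0.725% of all genes tested. In either fit, 0 were higher. The groups did not overlap in 10 of the 43 genes, all of them lower, against 0.707% of all genes. In 4 of 4 pairs, 23 were lower, against 8.54% of all genes. DESeq2 with the pairing called 1 of the 43 genes, *Uhrf1*. The list median was -0.30, -0.17, -0.29 and -0.10 in pairs 1 to 4.

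*Uhrf1* encodes the factor that guides maintenance DNA methylation at replication forks (chr17:56303321-56323486, plus strand). It was at 34.9, 34, 34.9 and 34.9 CPM in the mock-irradiated and at 24.8, 23, 25 and 21 CPM in the irradiated libraries, so that the mock-irradiated libraries hardly differed and the groups were clearly separated. The means were 34.6 ± 0.442 and 23.5 ± 1.88 CPM (SD, n = 4). The log2 fold change was -0.56 ± 0.12 (adjusted p = 0.00138, DESeq2 with the pairing), and the adjusted p was 0.0286 in DESeq2 without the pairing. *Pclaf*, the gene of the PCNA-associated factor that is not on the list, was at 30.9, 38.8, 37.8 and 34.7 CPM at 0 Gy and at 22.9, 28, 24.4 and 21.8 CPM at 2 Gy (-0.55 ± 0.12, adjusted p = 0.00198, DESeq2 with the pairing). *Pclaf* lies entirely within *Trip4* on the other strand, which was at 64.8 CPM on average over the 8 libraries and had a log2 fold change of 0.11 (adjusted p = 0.924, DESeq2 with the pairing).

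*Lig1*, the ligase that joins Okazaki fragments, was called lower as well, from 51 ± 6.5 to 37.4 ± 4.28 CPM (SD, n = 4; adjusted p = 0.0463, DESeq2 with the pairing). *Mcm5*, a subunit of the replicative helicase, was at 34, 32.5, 31 and 37 CPM at 0 Gy and at 25.2, 25.5, 25 and 23.6 CPM at 2 Gy. Its groups did not overlap, and its adjusted p was 0.0735 in DESeq2 with the pairing. *Ung*, the uracil-DNA glycosylase, was low in all libraries and had the largest difference of the list, from 3.05 ± 0.555 to 1.45 ± 0.191 CPM (SD, n = 4), with an adjusted p of 0.0634 in DESeq2 with the pairing and of 0.0109 in the fit of all 24 libraries in edgeR. *Mki67*, the proliferation marker Ki-67, was lower in 3 of 4 pairs (log2 fold change -0.09 ± 0.18, and 0.01 and 0.05 without pair 1 or 3).

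**Figure D3:**
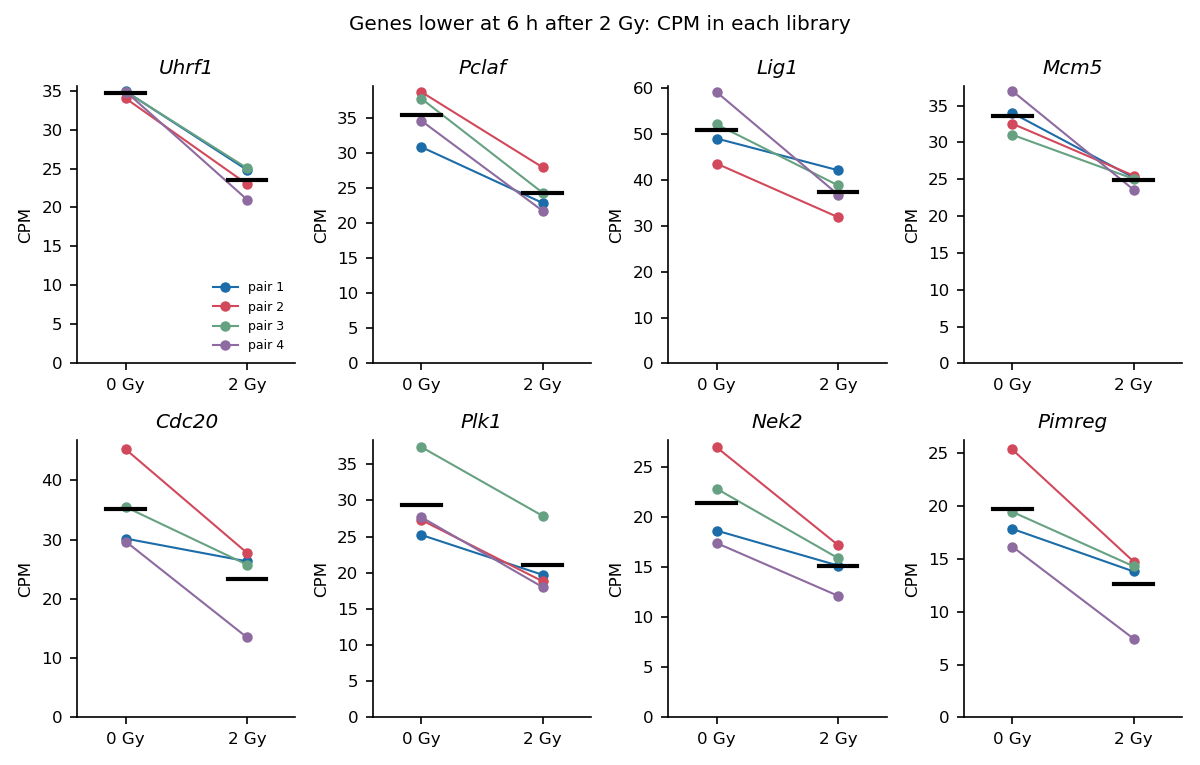
CPM (y axis, from 0) of 8 genes of replication (upper row) and mitosis (lower row) in the mock-irradiated (0 Gy) and irradiated (2 Gy) libraries at 6 h; lines join the libraries of a pair and black bars are the means of 4 libraries. All lines point downwards, and the 4 mock-irradiated libraries of *Uhrf1* lie between 34 and 34.9 CPM.

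Words bound by E2F factors, chosen after the data were seen (TTTCCCGC, TTTCGCGC, TTTGCCGC and TTTGGCGC, on both strands), were present in the promoter windows of 12 of the 31 S phase genes that had one (38.7%), compared with 2.6% of all genes. Of the 42 p53 targets with a window, 0 held such a word. The stretches of *Uhrf1* and *Mcm5* are shown, with the word in capitals, as those of genes whose groups did not overlap. The window of *Uhrf1* belongs to a RefSeq start within the gene as deposited.
Uhrf1, chr17:56304078-56304185, plus strand: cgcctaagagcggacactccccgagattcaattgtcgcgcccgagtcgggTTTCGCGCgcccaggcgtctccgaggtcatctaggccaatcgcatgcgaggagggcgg
Mcm5, chr8:75109306-75109413, plus strand: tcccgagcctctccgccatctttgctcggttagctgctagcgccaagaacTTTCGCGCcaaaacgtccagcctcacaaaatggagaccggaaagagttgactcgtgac
The words were also present in S phase genes with small differences, such as *Pola1* and *Pold3*. Among the fits with the pairing and all libraries, the log2 fold change was -0.22 to -0.08 for *Pola1* and -0.07 to -0.04 for *Pold3*.

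Most genes of the G2/M list had negative log2 fold changes as well, with exceptions, and few were called. Of 54 genes, 46 were lower and 8 higher, with a median log2 fold change of -0.20 in edgeR with the pairing. At an unadjusted p under 0.05, 20 were lower and 3 higher (10 and 1 without the pairing). Of all genes, 3.33% were lower and 3.55% higher at that threshold with the pairing. DESeq2 with the pairing called 3 lower, *Pimreg*, *Cdc20* and *Nek2*, and 2 higher, *Psrc1* and *Ckap2*, which are also on the list of p53 targets of arrest. *Gtse1*, a regulator of p53 in G2, was higher in 4 of 4 pairs and was not called (adjusted p = 0.114, DESeq2 with the pairing). In pair 4, the list median was -0.02, against -0.36 to -0.18 in the other pairs, and without pair 3 the median of the fit with the pairing was -0.12. In the fit without the pairing, the median of -0.22 became -0.13 without mock-irradiated library 3.

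Of 22 regulators of mitotic entry and exit, 20 were lower and 2 higher, with a median log2 fold change of -0.30. At an unadjusted p under 0.05, 13 were lower and 0 higher with the pairing (9 and 0 without it). Of all genes, 3.33% were lower at that threshold with the pairing and 0.725% without it. DESeq2 with the pairing called *Plk1*, *Cdc20* and *Nek2* lower. *Cdc20*, the activator of the anaphase-promoting complex, was at 30.2, 45.2, 35.5 and 29.7 CPM in the mock-irradiated and at 26.3, 27.8, 25.8 and 13.5 CPM in the irradiated libraries (-0.61 ± 0.15, adjusted p = 0.0137). *Plk1*, the kinase that drives mitotic entry, was at 25.2, 27.3, 37.4 and 27.7 CPM at 0 Gy and at 19.7, 18.8, 27.9 and 18 CPM at 2 Gy (-0.48 ± 0.12, adjusted p = 0.0269). *Cdc20* and *Nek2* had groups that did not overlap, and *Plk1* was lower in 4 of 4 pairs with overlapping groups. *Aurka*, the mitotic kinase Aurora A, and *Cdk1* were also lower in 4 of 4 pairs and were not called in DESeq2 with the pairing (adjusted p = 0.0879 and 0.616).

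*Lmnb1*, the gene of lamin B1, a nuclear envelope protein that is lost in senescent cells, was at 65.2, 85.8, 70.4 and 52.7 CPM at 0 Gy and at 48.6, 65.2, 53 and 35.7 CPM at 2 Gy. It was called lower (-0.44 ± 0.11, adjusted p = 0.00883, DESeq2 with the pairing) and was the 1 gene called among 18 genes of the list for senescence and its secreted factors, whose median log2 fold change was -0.01. *Samd1*, a chromatin factor at CpG islands, was the remaining gene called lower, from 13.4 ± 4.47 to 8.25 ± 1.51 CPM (SD, n = 4).

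Genes of homologous recombination and of the damage checkpoint were lower in the larger part of each list, except in pair 4, where the list medians were 0.10 and 0.03. Of 31 genes of homologous recombination and the Fanconi pathway, 22 were lower and 9 higher (median -0.13, and -0.06 without pair 3), and 5 were lower and 0 higher at an unadjusted p under 0.05 in edgeR with the pairing, where 3.33% of all genes were lower, and 0 without it. Of 12 genes of end joining, 8 were higher and 4 lower (median 0.06), and 0 were under an unadjusted p of 0.05 in edgeR with or without the pairing, with 0 calls in DESeq2. Among 18 kinases and mediators of the damage checkpoint (median -0.12, and -0.08 without pair 1 or pair 2, with 12 lower and 6 higher), 4 were lower and 1 higher at that threshold with the pairing, and 4 were lower and 0 higher without it, where 0.725% of all genes were lower. DESeq2 with the pairing called 0 genes of these 3 lists. The groups did not overlap for *Timeless* and *Clspn*, which protect replication forks, and for *H2afx*, the gene of histone H2AX, all of them lower, against 0.707% of all genes. *H2afx* was at 54.7, 56.4, 55.5 and 60.7 CPM at 0 Gy and at 47.2, 42.1, 49.2 and 37.3 CPM at 2 Gy. Its adjusted p was 0.231 in DESeq2 with the pairing, and its log2 fold change of -0.37 became -0.20 after adjustment for GC share and length. Of 52 replication-dependent histone genes, 33 passed the filter, with a median of 0.09 (0.18 after adjustment for GC share and length), and 22 were higher and 11 lower. Of these, 3 were higher at an unadjusted p under 0.05 in edgeR with the pairing, against 3.55% of all genes, and 0 without it. DESeq2 with the pairing gave an adjusted p for 16 of the 33 and called 0. Since their transcripts lack a poly(A) tail, poly(A) selection measures them only in part.

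In the lists of inflammation and stress, DESeq2 with the pairing called few genes. The median log2 fold change was 0.05 for 20 NF-kB targets, -0.03 for 35 genes of astrocyte reactivity, 0.01 for 14 genes of the unfolded protein and integrated stress response, and -0.02 for 17 genes of cholesterol synthesis and uptake, and DESeq2 with the pairing called 0 genes of these 4 lists. Of 17 AP-1 and immediate early genes, 13 were lower and 4 higher, with a median of -0.13 that was negative in each pair (-0.01, -0.10, -0.16 and -0.23). In 4 of 4 pairs, 6 were lower, against 8.54% of all genes. With counts adjusted for GC share and length, the median was -0.0073 with the pairing and -0.016 without it. At an unadjusted p under 0.05, 3 of them were lower and 1 higher with the pairing, against 3.33% and 3.55% of all genes, and 0 without it. *Fosl1*, which rose, was the gene called by DESeq2 with the pairing. Of 18 interferon-stimulated genes, 15 were higher and 3 lower, with a median of 0.11 that was positive in each pair (0.06 to 0.15). At an unadjusted p under 0.05 in edgeR, 3 were higher with the pairing, against 3.55% of all genes, and 0 without it. Adjusted for GC share and length, this median was 0.066 with and without the pairing. *Ifit1* had the largest of these differences (0.33 ± 0.09, adjusted p = 0.517, edgeR with the pairing). Its level was 7.19 and 8.88 CPM in pair 2 and 46.2 to 77.8 CPM in the other libraries. Of a list of 8 genes chosen for RT-qPCR (median -0.06), *Cdkn1a* was the only call in DESeq2 with the pairing.

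Markers of other cell types were also compared, since their share can move with a comparison. The median log2 fold changes were -0.04 for 14 microglial markers, -0.01 for 9 neuronal, -0.06 for 10 oligodendrocyte lineage, -0.10 for 12 fibroblast and vessel and -0.06 for 12 astrocyte markers. DESeq2 with the pairing gave an adjusted p for 14, 8, 7, 10 and 12 of these genes and called 0. In the same order, 0, 0, 0, 1 and 1 genes were under an unadjusted p of 0.05 in edgeR with the pairing. The mitochondrially encoded genes had a median of 0.50, but the pairs differed (0.27, 0.91, -0.12 and 1.02), and 0 of 13 were called by DESeq2, while 10 were under an unadjusted p of 0.05 in edgeR with the pairing and 0 without it. Without pair 4 the median was 0.33. Their summed level was 12890 to 31090 CPM at 0 Gy and 15390 to 42400 CPM at 2 Gy. Its part in the other differences was not tested.

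**Figure D4:**
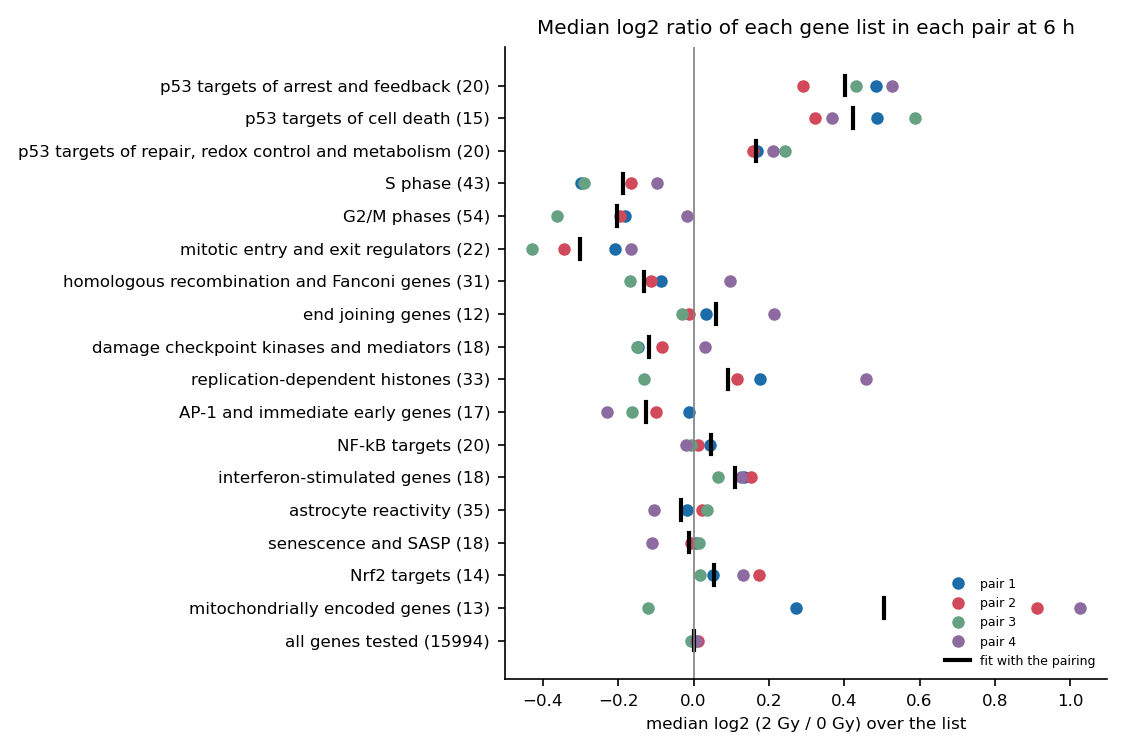
Median log2 ratio of 2 Gy to 0 Gy (x axis) over the tested genes of each list (y axis, number of genes in brackets); points are the 4 pairs and black bars the median of edgeR with the pairing. All points of the 3 lists of p53 targets lie to the right of 0 and all points of the 3 lists of cell cycle genes to the left, while the points of the mitochondrially encoded genes spread from -0.12 to 1.02.

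The levels after 2 Gy were then set beside those after 0.1 Gy at 6 h. For the leading genes, the mean level at 0.1 Gy lay between those at 0 Gy and 2 Gy and nearer to that at 0 Gy. These genes were chosen by their levels at 0 Gy and 2 Gy, so a level in between is favoured. Whether the difference depends on the dose cannot be read from it. The level of *Cdkn1a* was 391 ± 140 CPM at 0.1 Gy, between 371 ± 129 CPM at 0 Gy and 578 ± 128 CPM at 2 Gy (SD, n = 4). *Mdm2* was at 172 ± 37.2 CPM, *Ccng1* at 579 ± 88.2 CPM and *Ano3* at 18.3 ± 6.73 CPM at 0.1 Gy. Between 2 Gy and 0.1 Gy, edgeR with the pairing called 9 of 16278 genes (0.0553%) at an adjusted p under 0.05, all of them higher at 2 Gy. These were *Ano3* (log2 difference 0.98, adjusted p = 0.00659), *1700007K13Rik* (1.10), *Celf5* (1.03), *Dcxr* (0.77), *Trp53inp1* (0.71), *Cdkn1a* (0.60), *Mdm2* (0.52), *Ddit4l* (0.50) and *Plcd4* (0.48). DESeq2 with the pairing called 49 genes, and 0 were called without the pairing in edgeR (121 at an unadjusted p under 0.05) or DESeq2 (148). This comparison shares the irradiated libraries with the one above and is no independent support for it.

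The effect at 6 h was compared with that at 24 h after 2 Gy, which asks whether the early response lasted. The difference between the effects was tested as an interaction of dose and time on the 16 libraries at 0 and 2 Gy. It passed an adjusted p of 0.05 in 1143 of 16866 genes (6.78%) in edgeR with the pairing and in 0 genes without it, where 827 were under an unadjusted p of 0.05 and DESeq2 called 4. Of the 57 genes called higher at 6 h, the interaction was below 0 at an adjusted p under 0.05 in 20, meaning a smaller log2 fold change at 24 h, and above 0 at that threshold in none. The genes were chosen by their 6 h values, which enter the interaction, so this count favours smaller values at 24 h. Of the 55 p53 targets, the interaction was below 0 in 9 and above 0 in 3 at that threshold. The median log2 fold change at 6 h and 24 h was 0.40 and 0.17 for the targets of arrest, 0.42 and 0.42 for those of cell death and 0.16 and 0.14 for those of repair.

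*Ano3*, which is on none of the p53 lists, and the p53 targets *Trp53inp1*, *Mdm2*, *Ccng1*, *Pmaip1* and *Eda2r* were called higher at 6 h and had log2 fold changes from -0.09 to 0.15 at 24 h in edgeR with the pairing. *Mdm2*, for example, was at 218 ± 62.4 CPM in mock-irradiated and at 207 ± 64.7 CPM in irradiated cells at 24 h (SD, n = 4), and its interaction was -0.75 ± 0.16 (adjusted p = 0.0383, edgeR with the pairing). *Ddias* and *Tex15*, a gene best known from germ cells, had log2 fold changes of opposite sign at the 2 times, 0.84 and 0.90 at 6 h and -0.64 and -0.76 at 24 h (adjusted p of the interaction = 0.0132 and 0.0106). *Tex15* was at 12.4 and 20.9 CPM in pair 2 at 6 h and at most at 5.36 CPM in the other libraries, and its 6 h value without the pairing was -0.24 when irradiated library 2 was left out.

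In contrast, the 24 h values of *Cdkn1a*, *Sesn2* and *Dcxr* were close to those at 6 h. The log2 fold change of *Cdkn1a* was 0.67 ± 0.10 at 6 h and 0.57 ± 0.08 at 24 h, and the interaction was -0.09 ± 0.14 (adjusted p = 0.683, edgeR with the pairing). *Svop* was at 0.95 ± 0.17 and 1.43 ± 0.10, with an interaction of 0.49 ± 0.20 (adjusted p = 0.124). *Bax* showed the opposite order, with -0.08 ± 0.17 at 6 h, 0.82 ± 0.12 at 24 h and an interaction of 0.91 ± 0.23 (adjusted p = 0.0408). Other libraries serve as controls at 24 h, and of the genes called by DESeq2 with the pairing, 18 of the 57 higher at 6 h (31.6%) were among the 1065 called higher at 24 h (1.69% of these, and 7.81% of the 13641 genes with an adjusted p), and 7 of the 9 lower at 6 h (77.8%) were among the 1255 called lower (0.558% of these, and 9.2% of the 13641 genes).

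The medians of the cell cycle lists were below 0 at both times and further below at 24 h, while single genes differed from them, such as *Psrc1* and *Ckap2*, called higher at 6 h. These medians in edgeR with the pairing were -0.19 at 6 h and -0.76 at 24 h for the S phase, -0.20 and -0.75 for the G2/M phases and -0.30 and -0.70 for the regulators of mitosis. The interaction was below 0 at an adjusted p under 0.05 in 15 S phase genes (of 43) and in 26 genes of the G2/M list (of 54), and above 0 in none of either. Over all 16866 genes, the interaction was below 0 in 545 and above 0 in 598 at that threshold. *Pclaf* was at -0.55 ± 0.08 at 6 h and -1.37 ± 0.11 at 24 h (adjusted p of the interaction = 0.0335), and *Mki67* at -0.09 ± 0.18 and -1.61 ± 0.10 (0.0152). For *Uhrf1*, *Lig1*, *Plk1* and *Nek2* the interaction did not pass the threshold (adjusted p from 0.134 to 0.719).

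**Figure D5:**
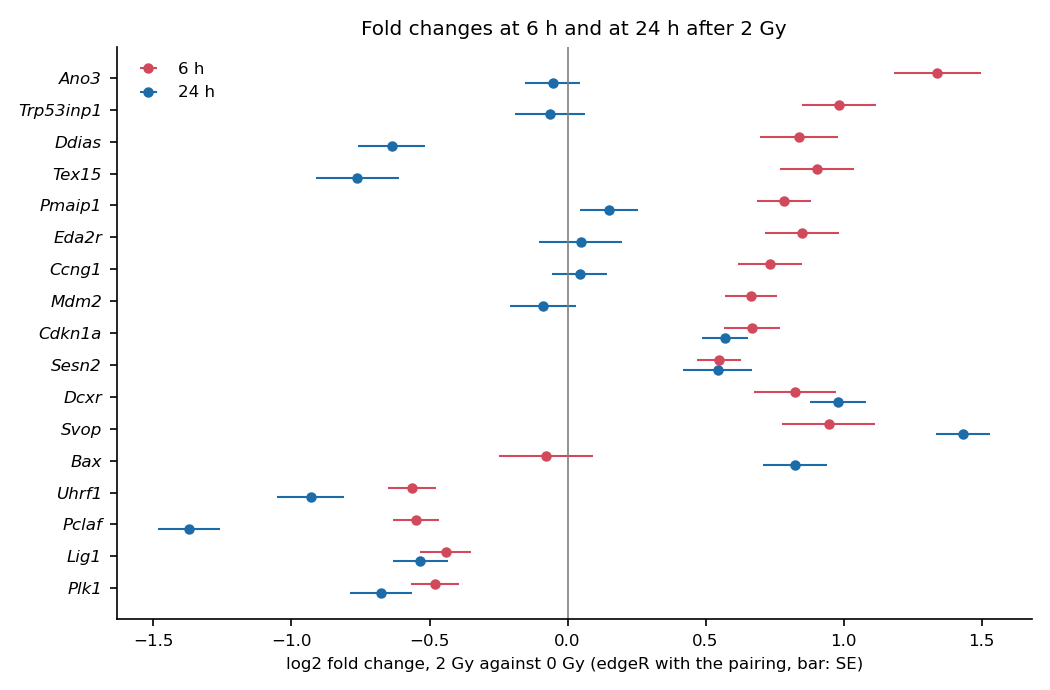
Log2 fold change of 2 Gy against 0 Gy (x axis) with its SE (bars) at 6 h (red) and 24 h (blue) for 17 genes, from edgeR with the pairing on 8 libraries at each time. The values of *Ano3*, *Trp53inp1*, *Ccng1* and *Mdm2* are close to 0 at 24 h, those of *Cdkn1a* and *Sesn2* are alike at both times, and *Bax* lies above 0 only at 24 h.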

How the data were processed

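The 24 libraries were made from poly(A) RNA and shared a sequencing run. The authors deposited raw counts per gene as whole numbers, 1 table for each library, without normalization and without pooling of replicates. Gene coordinates are those of GRCm38 (mm10), and the aligner, the counting tool and the use of strand are not given in the sources used here. Overlapping genes on opposite strands may therefore share reads. Replicates are separate isolations, and groups were taken from the sample titles. In no pair of libraries of a group did counts agree within sampling noise (lowest chi-square per degree of freedom 51.9). Intervals and SE cover the spread between these cultures only.

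For the present comparison, the counts entered edgeR 4.0.16 under R 4.3.3 (TMM, filterByExpr, quasi-likelihood test, Benjamini-Hochberg adjustment), first without pairing on the 8 libraries, which is the main test. A gene counted as called with a minimum fold change when its absolute log2 fold change was at least 1. Same-numbered libraries departed from their group means together (r = 0.65, 0.93, 0.60 and 0.54 across genes for numbers 1 to 4). The highest r of the mock-irradiated library with another number was 0.09, -0.32, 0.45 and 0.48. Each was below the r with the same number, but for numbers 3 and 4 by less. The numbers were taken to pair the samples. The pairing entered as a replicate block in edgeR, in DESeq2 1.42.0 (Wald test, which leaves genes of low counts without an adjusted p) and in limma 3.58.1 (voom). Log2 CPM values used a prior count of 2 and TMM factors over 24 libraries. For *Cdkn1a* and *Mdm2*, all divisions of the 8 libraries into 4 and 4 were enumerated (exact permutation test, two-sided). Scripts were tested on simulated data. Promoter windows are those of RefSeq (GRCm38.p6).

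The comparison, the gene lists and the tests were chosen with earlier results of these data known, so counts over the lists are descriptions and no list was tested. The rule for named genes took all list members, and the 10 genes with the smallest unadjusted p in each direction in edgeR without the pairing, edgeR with it and DESeq2 with it, among those at a mean of at least 1 CPM, and genes that overlap them. *Svop*, *Usp30*, *Ddias*, *Ddit4l* and *Inka2* are outside this rule and were chosen after their values were seen. The E2F words and the fits that leave out a pair in DESeq2 or in the fit of all 24 libraries were added after the data were seen.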

Additional observations from a re-analysis of the deposited data

Results flagged for a closer look

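A single library stood apart from the other 3 of its group by Dixon's criterion in 16 of the 126 groups of 4 examined (63 genes, 0 Gy and 2 Gy), and chance alone marks about 1 in 20 groups. In most of these it was library 2, at the high end. In the mock-irradiated group, library 2 was at 96.0 CPM for *Zfp365*, 79.4 for *Psrc1*, 51.7 for *Btg2*, 104 for *Pmaip1*, 27.1 for *Ano3*, 37.6 for *Celf5*, 12.4 for *Tex15* and 77.2 for *Gtse1*. In the irradiated group, library 2 was at 138 CPM for *Zfp365*, 57.9 for *Celf5*, 20.9 for *Tex15* and 86.6 for *Gtse1*. Irradiated library 4 was the lowest of its group for *Btg2* (48.1 CPM), *Pimreg* (7.45 CPM) and *Cdc20* (13.5 CPM). For *Uhrf1*, mock-irradiated library 2 was the lowest at 34.0 CPM, within a group that spans less than 1 CPM.

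The effect of 2 Gy differed between 6 h and 24 h, by the interaction of dose and time in edgeR with the pairing, for 17 of the 63 genes examined. Over all genes it was 1143 of 16866 (6.78%). Of the 63 genes, 43 were called by their 6 h values, which enter the interaction, so weaker effects at 24 h are favoured among them. The log2 effect was smaller at 24 h than at 6 h for *Ccng1* (-0.68), *Mdm2* (-0.75), *Trp53inp1* (-1.04), *Ckap2* (-0.78), *Eda2r* (-0.79), *Pmaip1* (-0.63), *Slc19a2* (-0.53), *Polk* (-0.85), *Ano3* (-1.38), *Ddias* (-1.47), *Nfe2l2* (-0.60) and *Tex15* (-1.66). It was more negative at 24 h for *Pclaf* (-0.81), *Clspn* (-0.82) and *Mki67* (-1.51). It was higher at 24 h for *Bax* (0.91) and *Samd1* (0.97). Without the pairing, the interaction passed an adjusted p of 0.05 in 0 genes in edgeR.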

How the results depend on the processing

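The replicate block changed the counts of calls and few of the fold changes. At an adjusted p under 0.05, the 0 genes of edgeR became 1 in DESeq2, 66 in DESeq2 with the replicate block, 155 in edgeR with the block and a GC and length correction, and 78 in edgeR on all 24 libraries with the block, of which 4, 6 and 7 passed a 2-fold change, and stayed at 0 with the block in edgeR, limma-voom and the newer quasi-likelihood method. The 215 genes at an unadjusted p under 0.05 became 421 without a filter on low counts, 1101 with the block, 1845 with the block and GC correction, 785 in DESeq2, 1173 in limma-voom and 1117 in the newer quasi-likelihood method, each with the block, and 1423 on 24 libraries with it. The interaction went from 0 genes to 1143 with the block, 4 in DESeq2 and 2484 in DESeq2 with the block, and 2 Gy against 0.1 Gy from 0 to 9 and 49. Leaving out libraries or pairs gave 0 to 129 genes at an adjusted p under 0.05, 0 to 9 of them past 2-fold, and 128 to 2232 at an unadjusted p. The lists of p53 targets stayed above 0 in each of these fits (arrest 0.22 to 0.63, cell death 0.24 to 0.58, repair 0.10 to 0.22), with both ends of each range set by leaving out irradiated or mock-irradiated library 2. Those of the cell cycle stayed below 0 (S phase -0.26 to -0.13, G2/M -0.28 to -0.11, mitosis -0.40 to -0.23), and the mitochondrial median ranged from 0.33 to 0.78. Other medians ranged from -0.19 to -0.0085 for AP-1, -0.24 to 0.20 for NF-kB, -0.22 to 0.40 for interferon, -0.18 to 0.051 for reactivity, -0.16 to 0.034 for senescence, -0.30 to 0.12 for RT-qPCR genes, and -0.45 to 0.25, -0.10 to 0.10, -0.25 to 0.19 and -0.35 to 0.053 for microglial, neuronal, oligodendrocyte and fibroblast markers. Under GC correction with and without the block, AP-1 moved to -0.0073 and -0.016 and interferon to 0.066 and 0.066. The NF-kB median moved to 0.047 with the block, 0.049 in DESeq2 with it, 0.064 and 0.048 in limma-voom without and with it, 0.047 in the newer method with it and 0.038 on 24 libraries with it. The cause of these shifts was not tested. Among 2205 values of 63 genes, 38 had the opposite sign, in 9 genes. With GC correction, with and without the block, *Gadd45a* was at 0.021 and 0.037 and *Bax* at 0.057 and 0.054, and *Xpc* without the block at 0.0043, while *Bbc3* moved to 0.31 and 0.29. Leaving out libraries or pairs, *Gadd45a* ranged from -0.15 to 0.0046, *Bax* from -0.26 to 0.14, *Bbc3* from -0.14 to 0.30, *Xpc* from -0.11 to 0.037, *Mki67* from -0.34 to 0.055, *Pola1* from -0.24 to 0.0063, *Pold3* from -0.14 to 0.069, *Tex15* from -0.24 to 2.09 and *Ifit1* from -0.017 to 0.70.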
